A study of Mus musculus with 35 samples.

Results

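The neurotrophic factors and receptors examined here were 9 genes among the 21203 in the expression table. They were chosen by name: the secreted factors Bdnf, Ntf3, Cntf and Gdnf, and the receptors Ntrk2, Ntrk3, Ngfr, Cntfr and Gfra1. All 9 had enough counts to be tested. RNA-seq had been run on brain tissue of male C57BL/6NCrl mice, aged 8 to 9 weeks when procedures began. Sham animals had neither impact nor injection, and the others had a closed head injury (CHI), a blow to the skull. Injured mice received an injection into the left hippocampus 5 days after injury of PBS, of mesenchymal stromal cells (MSCs), or of MSCs transfected with synthetic interleukin-4 mRNA (IL-4 MSCs), and tissue was taken at 1 or 3 weeks post-injury (wpi). The MSCs were primary cells of C57BL/6N mice from 1 lot of a vendor, and IL-4 expression from the mRNA is transient by design. There were 5 libraries in each of the 7 groups except PBS at 3 wpi, which had 4. Of the 5 Sham mice, 2 were collected at week 1 and 3 at week 3, and the same 5 served both time points.

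Neurotrophins are small secreted proteins that keep neurons alive and shape their synapses. BDNF acts through TrkB (Ntrk2) and neurotrophin-3 through TrkC (Ntrk3), while p75NTR (Ngfr) binds all neurotrophins and their precursors. GDNF belongs to a separate family that binds GFRα1 (Gfra1) and then the kinase Ret, and CNTF is a cytokine of the interleukin-6 type, made in the brain chiefly by astrocytes, whose receptor is built of CNTFRα (Cntfr), gp130 (Il6st) and Lifr. In the forebrain, p75NTR is best known from the cholinergic neurons of the basal forebrain.

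Promoter sequences are shown for Bdnf and Cntf, the ligands that differed from Sham in all groups at 1 wpi. They are the 250 bases before a transcription start, from RefSeq on GRCm38.p6, in which 8 of the 9 members had at least 1 window and Ntrk3 had none. The windows were searched on both strands for TGACGTCA (the CRE bound by CREB), CACGTCA (a CRE-like element), TGACTCA (AP-1) and TTCNNNGAA (STAT). Capitals mark the match. Window 3 of the 7 Bdnf windows (chr2:109692186-109692435, + strand) held CACGTCA, and the single Cntf window (chr19:12765633-12765882, − strand) held TGACTCA.
Bdnf window 3: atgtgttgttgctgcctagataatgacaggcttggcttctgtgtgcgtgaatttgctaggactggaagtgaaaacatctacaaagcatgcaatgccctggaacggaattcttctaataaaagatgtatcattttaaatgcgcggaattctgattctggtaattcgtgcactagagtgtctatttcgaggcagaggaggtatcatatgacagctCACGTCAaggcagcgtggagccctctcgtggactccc
Cntf: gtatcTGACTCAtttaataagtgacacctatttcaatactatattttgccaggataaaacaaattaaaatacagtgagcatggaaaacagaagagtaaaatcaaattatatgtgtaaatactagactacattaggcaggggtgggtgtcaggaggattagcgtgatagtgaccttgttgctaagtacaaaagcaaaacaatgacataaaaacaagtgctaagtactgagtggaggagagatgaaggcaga
Over all 32851 promoter windows of this length, CACGTCA was present in 1.65% and TGACTCA in 4.46%. The CRE-like letters were also in 1 of the 2 Gdnf windows, and TTCNNNGAA, found in 7.02% of all windows, was in window 1 of Bdnf. The full CRE was in no member's window and in 1.55% of all windows. A match describes the letters of the window and binding was not measured.

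The libraries held 29838423 to 41554322 estimated counts in total. Levels are given as CPM, the count scaled to its library's total. The tissue, cut around the injection site, was labelled left cortex, and markers of cortex, hippocampus and striatum were all detected in it. Region markers varied widely between mice. The summed level of 13 striatal markers ran from 360.4 to 3400 CPM, that of 8 hippocampal markers from 36.2 to 221 CPM and that of 5 cholinergic basal forebrain markers (Chat, Slc5a7, Slc18a3, Lhx8 and Gbx1) from 1.49 to 46.6 CPM. The Sham mice of the 2 weeks stood apart, with 360.4 to 368 CPM of striatal markers at week 1 and 978 to 1214 CPM at week 3. IL-4 MSC replicate 2 at 3 wpi was the lowest of its group in Ngfr and Gdnf and the highest in Bdnf and Ntf3. Its striatal markers summed to 537 CPM and its hippocampal markers to 176 CPM. The other mice of that group had 2068 to 3400 and 36.2 to 91.6 CPM. Every other group had at most 1236 and at least 112.5 CPM. Fits without replicate 2 thus keep only the mice with the most striatal and least hippocampal marker RNA. Several results that rest on it or on the Sham weeks are given with and without those libraries. In such bulk tissue, fewer cells of a type and less RNA per cell cannot be told apart. The p-values of group differences set them against the spread between mice within groups. For Sham that spread includes the 2 weeks.

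**Figure D1:**
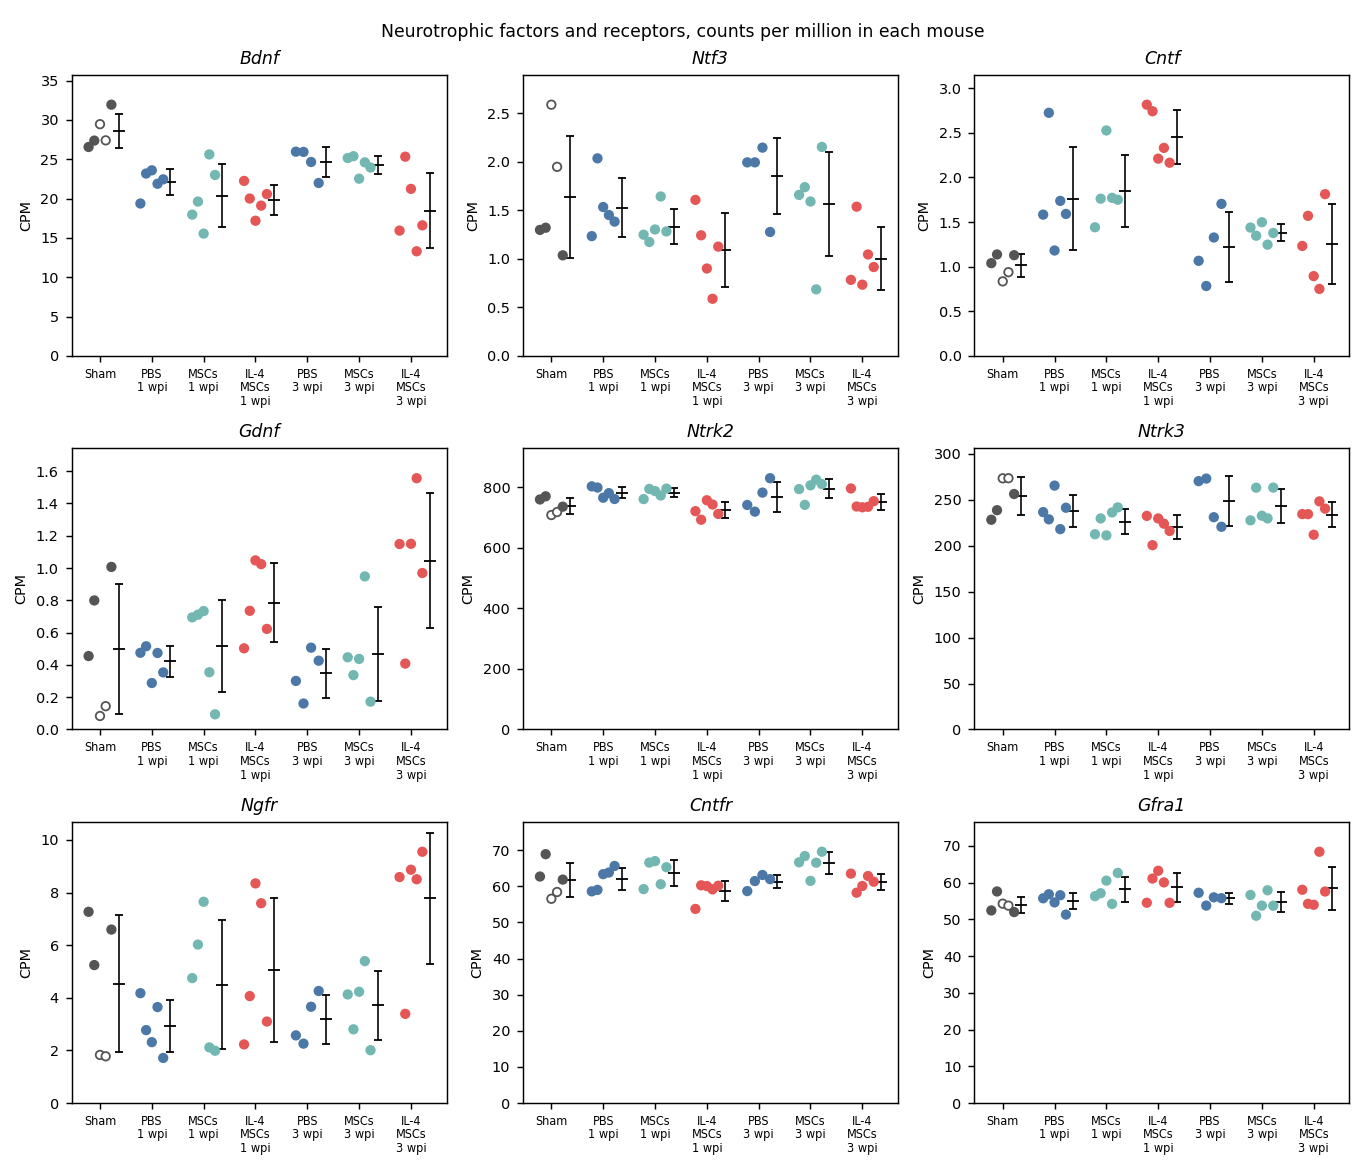
Level of each of the 9 genes in every library, in CPM; points are mice, bars the mean ± SD of each group, and open circles the 2 Sham mice collected at week 1. The Sham points of Bdnf (26.6 to 31.9 CPM) lie above those of every group at 1 wpi and those of Cntf (0.836 to 1.14 CPM) below, while Ngfr and Gdnf spread several-fold inside single groups.

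Levels between genes were compared per transcript length, as TPM. In Sham tissue 4 of the 5 receptors were more abundant than any ligand. Ntrk2 came first with 225 ± 8.99 TPM (mean ± SD, n = 5), followed by Cntfr with 83.1 ± 8.15, Ntrk3 with 53.3 ± 5.38 and Gfra1 with 38.2 ± 2.07 TPM. Bdnf was the most abundant ligand at 15.1 ± 1.29 TPM. Ntf3 at 2.90 ± 1.11, Ngfr at 2.83 ± 1.61 and Cntf at 2.38 ± 0.311 TPM overlapped as neighbours, so their order was not resolved. Gdnf was the scarcest at 0.291 ± 0.238 TPM. The other neighbours in this order did not overlap in the Sham mice.

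Differences were tested with edgeR's quasi-likelihood test over 17131 genes, and a gene was called at a Benjamini-Hochberg adjusted p under 0.05. Against Sham at 1 wpi, 2 of the 9 members were called after PBS, 3 after MSCs and 6 after IL-4 MSCs, beside 13.7%, 17.8% and 36.9% of all genes. Bdnf was lower and Cntf higher in all 3 groups. Ntrk3 was lower after MSCs and IL-4 MSCs, and Ntf3, Ntrk2 and Cntfr were lower after IL-4 MSCs. At 3 wpi no member was called after PBS or MSCs, where 0.0175% and 1.16% of all genes were, and Bdnf alone after IL-4 MSCs, where 4.02% were. At an unadjusted p under 0.05 there were 0 members after PBS and 2 after MSCs (Cntfr and Ntrk2), and DESeq2 called 0 in both. These comparisons share the same Sham mice.

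**Figure D2:**
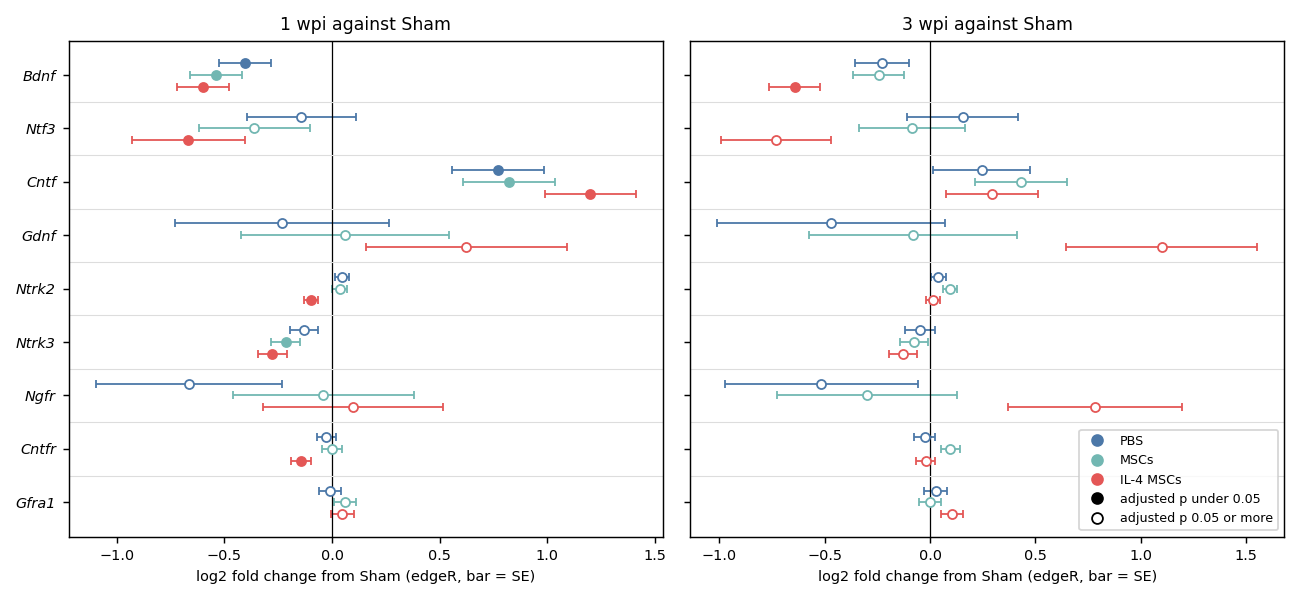
Log2 fold change of each member from Sham at 1 wpi (left) and 3 wpi (right) after PBS, MSCs or IL-4 MSCs, with bars of 1 SE from the edgeR fit; filled points have an adjusted p under 0.05. Bdnf sits at -0.60 to -0.41 and Cntf at 0.77 to 1.20 at 1 wpi, and the bars of Gdnf and Ngfr are the widest.

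Bdnf, on chromosome 2 (109674700 to 109727007, + strand, GRCm38), encodes an activity-dependent neurotrophin of the forebrain. It was 26.6, 27.4, 29.5, 27.4 and 31.9 CPM in Sham replicates 1 to 5. At 1 wpi it was 19.4, 23.2, 23.6, 21.9 and 22.5 CPM after PBS. After MSCs it was 18.0, 19.6, 15.6, 25.6 and 23.0 CPM. All of these mice lay below the lowest Sham mouse. After IL-4 MSCs it was 22.3, 20.01, 17.2, 19.1 and 20.6 CPM, again below every Sham mouse. Genes whose groups did not overlap made up 9.88%, 13.4% and 25.7% of all genes in the 3 comparisons. Those lying wholly below Sham made up 1.79%, 2.03% and 5.16%. The log2 fold changes were -0.41 ± 0.12 (adjusted p = 0.0213) after PBS, -0.54 ± 0.12 (adjusted p = 0.00171) after MSCs and -0.60 ± 0.12 (adjusted p = 0.0002) after IL-4 MSCs, where ± gives the SE. The first was lost without Sham replicate 5 or PBS replicate 1 (adjusted p up to 0.0577) and against the 2 Sham mice of week 1 (-0.42, adjusted p = 0.0793). The other 2 kept their call with each library left out and against the week 1 Sham mice.

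At 3 wpi Bdnf lay below the Sham range in every injured mouse. It was 26.0, 25.9, 24.7 and 21.99 CPM after PBS and 25.2, 25.4, 22.5, 24.6 and 24.0 CPM after MSCs. The log2 differences from Sham were -0.23 ± 0.13 (adjusted p = 0.975) and -0.24 ± 0.12 (adjusted p = 0.463), neither passing the test. Genes whose groups did not overlap made up 2.15% and 2.17% of all genes in these comparisons and 3.29% after IL-4 MSCs. Those lying wholly below Sham made up 0.333%, 0.304% and 0.887%. After IL-4 MSCs Bdnf was 15.9, 25.3, 21.2, 13.3 and 16.6 CPM and fell by 0.64 ± 0.12 on the log2 scale relative to Sham (adjusted p = 0.00344). Replicate 2 was the only one of these mice inside the PBS and MSC ranges. Against the PBS and MSC mice of that week the differences were -0.41 and -0.40 (adjusted p = 0.0768 and 0.0661), and without that replicate -0.56 and -0.54 (adjusted p = 0.00211 and 0.00159). The IL-4 MSC mice then kept had 36.2 to 91.6 CPM of hippocampal markers, against 176 CPM in replicate 2.

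Bdnf moved with hippocampal markers, among others. Over the 34 libraries its log2 CPM correlated with the mean log2 CPM of 8 hippocampal markers (Pearson r = 0.708, permutation p = 1e-05; Spearman rho = 0.657, permutation p = 5e-05). A p of 1e-05 is the smallest that 100000 resamples can give. The resamples shuffled all 34 libraries without regard to group. These p-values, here and for the other members, therefore also take in differences between groups, and r within groups was not tested. Over 144 such relations, 9 members by 16 marker lists, the Benjamini-Hochberg adjusted p-values were 0.000103 and 0.00045. Without the 2 libraries farthest from the median r was 0.583, and with each group's mean subtracted it was 0.787. In IL-4 MSC mice at 3 wpi these markers summed to 36.2 to 176 CPM, against 131 to 218 CPM in Sham. Of the 8, 0 were called, beside 4.02% of all genes, and their median log2 difference was -1.02. With this score in the fit the Bdnf difference from Sham was -0.29 (adjusted p = 0.243) in those mice. At 1 wpi it was -0.44, -0.52 and -0.48 (adjusted p = 8.72e-05, 6.87e-06 and 9.67e-06) for PBS, MSC and IL-4 MSC mice. Bdnf also ran against the mean log2 CPM of the striatal markers (r = -0.621, within groups -0.661) and of the cholinergic markers (-0.566, within groups -0.565). With microglial markers r was -0.56 and within groups -0.0783. The part of tissue content in the Bdnf differences was not tested.

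Bdnf is itself among the genes that neuronal firing switches on, and other genes of that kind were lower too. Of 12 activity-regulated genes, 11 were lower than in Sham after PBS at 1 wpi, 10 after MSCs and 9 after IL-4 MSCs, beside 4.99%, 6.86% and 18.4% of all genes, and none was higher. Their median log2 differences were -0.82, -0.84 and -0.80, beside medians of -0.01, -0.01 and -0.02 over all genes tested. Fosb, a Fos-family transcription factor, went from 17.6 ± 3.55 CPM in Sham to 10.3 ± 1.62, 9.60 ± 2.22 and 9.55 ± 0.967 CPM in that order, and fell by 0.81, 0.92 and 0.95 on the log2 scale (adjusted p = 2.74e-05, 3.12e-06 and 4.2e-07). Egr1, another immediate early transcription factor, fell by 0.88, 0.82 and 0.80 (adjusted p = 4.47e-05, 7.3e-05 and 3.76e-05). At 3 wpi 5 of the 12 were lower after IL-4 MSCs, Egr2 by 1.19 (adjusted p = 0.00285), and 0 after PBS or MSCs, beside 1.39%, 0.00584% and 0.035% of all genes lower. The genes whose levels followed Bdnf most closely over the 34 libraries, by Pearson r of log2 CPM, were Nr4a3 (0.884), Nrn1 (0.880) and Apba1 (0.856). Of the 7 activity-regulated genes with a promoter window, 1 (Homer1) held the CACGTCA shown for Bdnf.

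**Figure D3:**
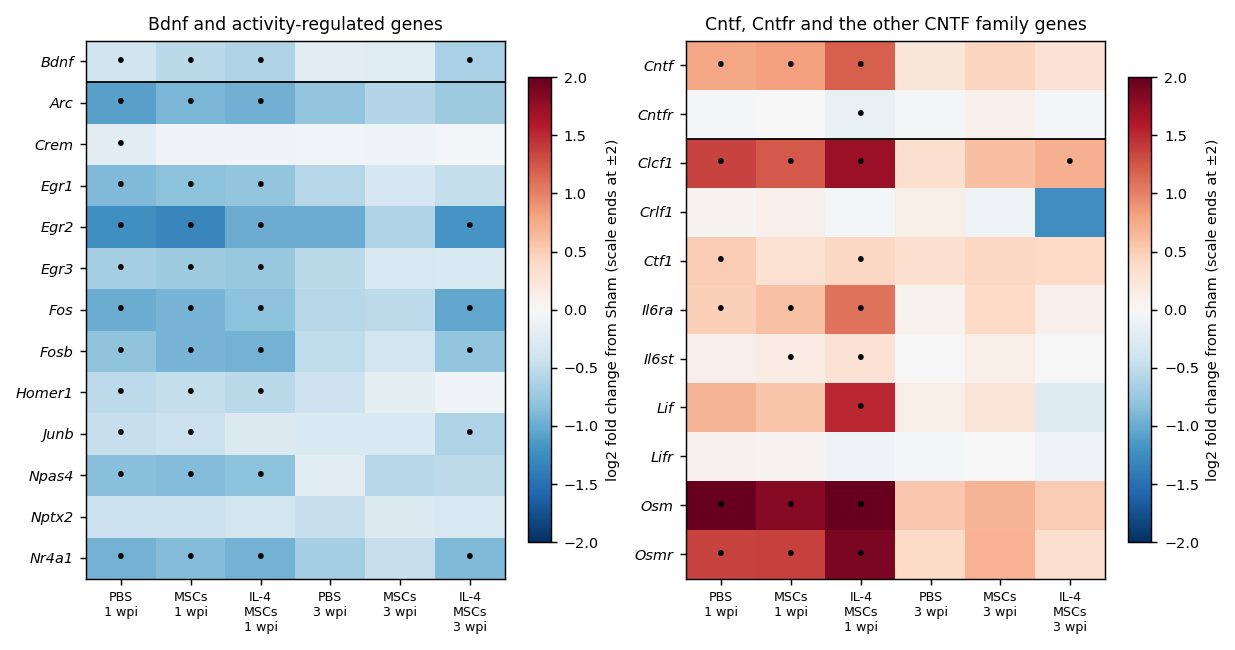
Log2 fold change from Sham in the 6 injured groups of Bdnf with 12 activity-regulated genes, and of Cntf and Cntfr with 9 further genes of the CNTF family; blue is lower, red is higher, the colour scale ends at ±2 and a dot marks an adjusted p under 0.05. At 1 wpi the activity-regulated genes are mostly blue, and Clcf1, Osm and Osmr are red in all 3 groups.

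Ntf3, on chromosome 6 (126101412 to 126166910, − strand), encodes neurotrophin-3 and had 19 to 93 counts per library. It was 1.30, 1.32, 2.59, 1.95 and 1.04 CPM in Sham replicates 1 to 5, replicates 3 and 4 being the week 1 mice and the highest. After IL-4 MSCs at 1 wpi it was 1.61, 1.24, 0.902, 0.590 and 1.13 CPM, overlapping Sham. The difference, -0.67 ± 0.26 (adjusted p = 0.044), was lost without any 1 of 7 libraries (log2 -0.82 to -0.41, adjusted p up to 0.268). Against the week 1 Sham mice it was -1.13 (adjusted p = 0.00291). At 3 wpi Ntf3 was 0.784, 1.54, 0.735, 1.05 and 0.917 CPM after IL-4 MSCs and 2.00, 2.00, 2.15 and 1.28 CPM after PBS. That difference, -0.88 ± 0.27 (adjusted p = 0.072), did not pass the test, but did without IL-4 MSC replicate 2 (-1.09, adjusted p = 0.0127). Ntf3 ran against the cholinergic basal forebrain score, the mean log2 CPM of its 5 markers (r = -0.774 and rho = -0.792, permutation p = 1e-05 for both, adjusted p = 0.000103 and 9.6e-05). Without the 2 farthest libraries r was -0.752, and within groups -0.72.

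Cntf, on chromosome 19 (12763660 to 12765632, − strand), encodes ciliary neurotrophic factor. It was scarce, at 24.4 to 111 estimated counts. Its span lies within that of Zfp91 on the same strand, so the counting could split reads between them and the Cntf values are uncertain to that extent. In 24 of 34 libraries the estimate was within 0.01 of a whole number. Cntf was 1.04, 1.14, 0.836, 0.939 and 1.13 CPM in Sham replicates 1 to 5. At 1 wpi it was 1.58, 2.72, 1.18, 1.74 and 1.59 CPM after PBS and 1.44, 1.76, 2.53, 1.77 and 1.75 CPM after MSCs. After IL-4 MSCs it was 2.82, 2.74, 2.21, 2.33 and 2.16 CPM. Every injured mouse at 1 wpi lay above every Sham mouse, as for 8.09%, 11.3% and 20.6% of all genes after PBS, MSCs and IL-4 MSCs. The log2 fold changes of Cntf were 0.77 ± 0.21 (adjusted p = 0.0127), 0.82 ± 0.21 (adjusted p = 0.00574) and 1.20 ± 0.21 (adjusted p = 2.53e-05). Without PBS replicate 2 the first was 0.56 (adjusted p = 0.0964). Zfp91 was 178 ± 6.18 CPM in Sham and 179.8 ± 3.90 CPM after IL-4 MSCs at 1 wpi.

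At 3 wpi Cntf was 1.07, 0.784, 1.33 and 1.70 CPM after PBS, overlapping Sham. After MSCs it was 1.44, 1.35, 1.498, 1.25 and 1.38 CPM, with every mouse still above every Sham mouse, as for 1.87% of all genes. The log2 difference of Cntf, 0.43 ± 0.22 (adjusted p = 0.477), did not pass the test. Cntf was 1.23, 1.57, 0.894, 0.751 and 1.81 CPM after IL-4 MSCs, overlapping Sham and lower than in every IL-4 MSC mouse of 1 wpi. Between these weeks 20.9% of all genes did not overlap, and 18% of all genes lay wholly lower at 3 wpi. Cntf fell by 0.91 ± 0.21 on the log2 scale between the weeks (adjusted p = 0.000804). In PBS and MSC mice the differences were -0.52 and -0.39 (adjusted p = 0.211 and 0.327). Whether the change over time differed between treatments did not pass the test (IL-4 MSCs against PBS 0.38 ± 0.30 (adjusted p = 0.58), IL-4 MSCs against MSCs 0.52 ± 0.29 (adjusted p = 0.331)). At 1 wpi IL-4 MSC mice differed from PBS mice by 0.43 ± 0.20 (adjusted p = 0.144) and from MSC mice by 0.38 ± 0.20 (adjusted p = 0.297), so neither difference passed the test.

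Markers of reactive astrocytes, microglia and other cell types differed from Sham alongside Cntf at 1 wpi. Against Sham at 1 wpi, 8.7%, 10.9% and 18.4% of all genes were higher in PBS, MSC and IL-4 MSC mice. The shares lower were 4.99%, 6.86% and 18.4%, and both are the background for the lists here. Of 7 reactive astrocyte markers 6, 6 and 7 were higher in these groups. Their summed level was 213 to 273 CPM in Sham, 1028 to 1697 after PBS, 1135 to 1484 after MSCs and 1455 to 1989 after IL-4 MSCs. Of 6 microglial markers 5, 5 and 5 were higher, and they summed to 273 to 348 CPM in Sham, 434 to 546 after PBS, 464 to 528 after MSCs and 495 to 609.5 after IL-4 MSCs. Of 7 infiltrating macrophage markers 4, 4 and 7 were higher, and they summed to 13.4 to 25.8 CPM in Sham, 42.5 to 80.6 after PBS, 50.9 to 92.0 after MSCs and 419 to 669 after IL-4 MSCs. Of 6 fibroblast and meningeal markers 2, 3 and 4 were higher, and of 5 endothelial markers 0, 0 and 4. Of 8 neuronal markers 4, 3 and 6 were lower. With the neuronal score in the fit Cntf was not called (log2 0.17, 0.31 and 0.45, adjusted p = 0.875, 0.516 and 0.333). That score was 9.06 to 9.19 in Sham and 8.84 to 9.03, 8.92 to 8.98 and 8.81 to 8.92 in these groups. Because the score itself differs between Sham and injured mice, this fit cannot decide the cause. The part of neurons or of other cell types in the Cntf differences was not tested. With each group's mean subtracted, the Pearson r of Cntf over the 34 libraries was 0.502 with the reactive astrocyte score, 0.513 with the microglial score and 0.403 with the infiltrating macrophage score. It was 0.507 with the astrocyte score, 0.557 with the oligodendrocyte precursor score and -0.537 with the neuronal score. With the endothelial score it was 0.0539, and with the fibroblast and meningeal score -0.249. The genes that followed Cntf most closely were Fxyd1 (0.918), Cnn3 (0.907) and P4ha3 (0.906), by Pearson r.

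Relatives of CNTF were higher as well. Of 9 further CNTF family genes, 5 were higher than in Sham after PBS, 5 after MSCs and 7 after IL-4 MSCs at 1 wpi, beside 8.7%, 10.9% and 18.4% of all genes, with none lower and medians of 0.51, 0.56 and 1.09 on the log2 scale. Clcf1, whose product also signals through CNTFRα, went from 0.825 ± 0.207 CPM in Sham to 2.16 ± 0.564, 2.01 ± 0.217 and 2.90 ± 0.181 CPM (log2 1.35, 1.23 and 1.73, adjusted p = 1.88e-06, 5.62e-06 and 1.35e-09). Osm, a cytokine of macrophages, had 1 to 7 counts in Sham and 29 to 54 after IL-4 MSCs. Il6st, the shared gp130 chain, rose by 0.29 after IL-4 MSCs (adjusted p = 5.63e-05), while Lifr differed by -0.09 (adjusted p = 0.393). At 1 wpi 5 of the 9 were higher in IL-4 MSC than in PBS mice and 3 higher than in MSC mice, Il6ra among both (0.61 and 0.50, adjusted p = 5.37e-05 and 0.000855), beside 11.1% and 7.65% of all genes. From 1 to 3 wpi 7 of the 9 fell in IL-4 MSC mice, as did 16.5% of all genes. Osmr is in both this list and the reactive astrocyte list.

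Gdnf, on chromosome 15 (7810846 to 7837575, + strand), encodes glial cell line-derived neurotrophic factor and had 3 to 58 counts per library. It was 0.0836 and 0.144 CPM in the Sham mice of week 1 and 0.455, 0.799 and 1.01 CPM in those of week 3. After PBS it was 0.288 to 0.515 CPM at 1 wpi and 0.161 to 0.507 CPM at 3 wpi. Gdnf was called in none of the 15 comparisons between groups. IL-4 MSC mice at 3 wpi had 1.15, 0.408, 1.15, 1.56 and 0.969 CPM, replicate 2 the lowest. The log2 difference from PBS mice was 1.57 ± 0.51 (adjusted p = 0.0866), and 1.76 without that replicate (adjusted p = 0.0231). Against the week 1 Sham mice, with 3 and 6 counts, Gdnf was called at 1 wpi after MSCs (2.08, adjusted p = 0.0358) and IL-4 MSCs (2.65, adjusted p = 0.00243), and a fold against so few counts depends on the prior count.

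Ngfr, on chromosome 11 (95568818 to 95587735, − strand), encodes the p75 neurotrophin receptor. It was 1.83 and 1.78 CPM in the Sham mice of week 1 and 7.27, 5.24 and 6.59 CPM in those of week 3. The 2 weeks, with 2 and 3 mice, did not overlap, which groups this small can do by chance. A test between the weeks did not pass (log2 1.80, adjusted p = 0.136; for Gdnf 2.65, adjusted p = 0.0841; 0.0806% of all genes were called). IL-4 MSC mice had 2.23, 4.06, 8.35, 7.59 and 3.10 CPM at 1 wpi and 8.59, 3.39, 8.87, 8.51 and 9.55 CPM at 3 wpi. MSC mice had 1.99 to 7.65 CPM and PBS mice 1.71 to 4.18 CPM at 1 wpi. Ngfr was called in none of the 15 comparisons, the largest log2 difference being 1.30 ± 0.45 (adjusted p = 0.118) between IL-4 MSC and PBS mice at 3 wpi. Without IL-4 MSC replicate 2 it was 1.48 (adjusted p = 0.0383). The IL-4 MSC mice then kept had 2068 to 3400 CPM of striatal markers, against 537 CPM in replicate 2.

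Ngfr and Gdnf followed each other over the 34 libraries (Pearson r = 0.857), and both followed the cholinergic basal forebrain score. For Ngfr r was 0.962 and rho 0.964, and for Gdnf r was 0.938 and rho 0.923 (permutation p = 1e-05 each, adjusted p = 0.000103 and 9.6e-05 for Ngfr and 0.000103 and 9.6e-05 for Gdnf). Without the 2 farthest libraries r was 0.961 and 0.925, and within groups 0.955 and 0.94. The genes nearest to Ngfr were Lhx8 (0.960), Slc5a7 (0.927) and Chat (0.924), all of them among the 5 markers of the score, so these values restate the relation with it. Those nearest to Gdnf were Adora2a (0.957), Penk (0.944) and Lhx8 (0.938), of which Lhx8 is a marker of the score and Adora2a and Penk are striatal markers. Both members also followed the striatal score, with r = 0.918 for Ngfr and 0.904 for Gdnf (within groups 0.894 and 0.919). Striatal and cholinergic content cannot be told apart here. With the cholinergic score in the fit, an alternative chosen after seeing the data, the difference between IL-4 MSC and PBS mice at 3 wpi was 0.01 for Ngfr (adjusted p = 0.994) and 0.08 for Gdnf (adjusted p = 0.968). Because the score follows both genes so closely in these same libraries, a small difference in this fit cannot decide the cause. The cause was not tested. Between IL-4 MSC and PBS mice at 3 wpi 12 of 13 striatal markers were higher, and 0 of 5 cholinergic markers were called (median 2.01). Of all genes, 2.13% were higher and 2.9% were called in that comparison.

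**Figure D4:**
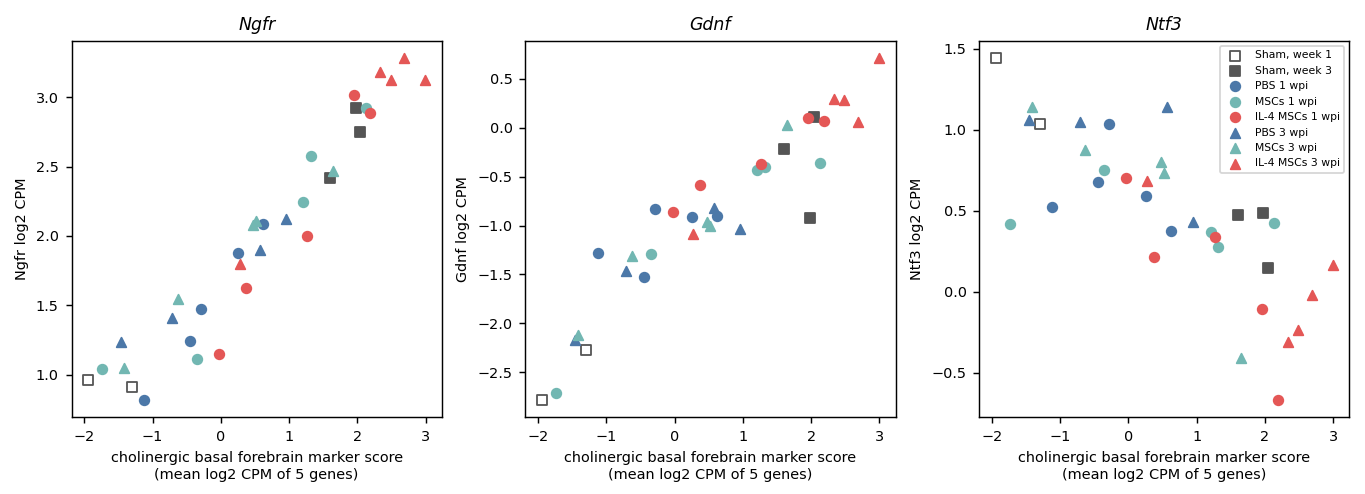
Log2 CPM of Ngfr, Gdnf and Ntf3 in each of the 34 libraries against the mean log2 CPM of 5 cholinergic basal forebrain markers; each point is a mouse. Ngfr (r = 0.962) and Gdnf (r = 0.938) climb with the score and Ntf3 (r = -0.774) descends.

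Ntrk2, on chromosome 13 (58806569 to 59133970, + strand), encodes TrkB, which neurons make with its kinase and astrocytes mainly in a truncated form. The values are sums over transcripts. It had the narrowest range of the members, its highest library being 1.20 times its lowest. At 1 wpi Ntrk2 was 721, 692, 757, 743 and 712 CPM after IL-4 MSCs, 803, 799, 765, 780.3 and 761 CPM after PBS and 761, 794, 787, 772 and 795 CPM after MSCs. Every IL-4 MSC mouse lay below every mouse of the other treatments, as for 2.73% and 1.07% of all genes. In either direction 14.2% and 9.68% of all genes did not overlap in these comparisons. The log2 differences were -0.14 ± 0.03 (adjusted p = 0.00217) from PBS and -0.13 ± 0.03 (adjusted p = 0.00672) from MSCs. There 1 and 2 of the 9 members were called, and 17.1% and 8.66% of all genes. The difference from PBS kept its call with each library left out (-0.15 to -0.11), and that from MSCs was lost without IL-4 MSC replicate 2 (adjusted p = 0.0699). In the same comparisons 7 and 7 of 7 infiltrating macrophage markers and 3 and 3 of 5 endothelial markers were higher. The endothelial markers summed to 262 to 326 CPM after IL-4 MSCs, 196 to 212 after PBS and 202 to 249 after MSCs, and the part of these cells in the Ntrk2 and Cntfr differences was not tested. Sham mice had 759, 769.8, 708, 718 and 736 CPM, and the difference from them, -0.10 ± 0.03 (adjusted p = 0.0197), was -0.03 (adjusted p = 0.63) when libraries were scaled by their totals alone. It was also lost without any 1 of 8 of the 10 libraries, namely Sham replicates 1, 2, 3 and 5 and IL-4 MSC replicates 1, 2, 4 and 5 (log2 -0.11 to -0.05, adjusted p up to 0.264). Ntrk2 averaged 713 CPM in the week 1 Sham mice, 755 CPM in those of week 3 and 725 CPM after IL-4 MSCs at 1 wpi.

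Ntrk3 and Cntfr differed by similarly small amounts. Ntrk3, on chromosome 7 (78175959 to 78738012, − strand), encodes TrkC and was 228 to 273 CPM in Sham, 211 to 242 CPM after MSCs and 201 to 232 CPM after IL-4 MSCs at 1 wpi. It fell by 0.22 ± 0.07 (adjusted p = 0.0218) and 0.28 ± 0.07 (adjusted p = 0.00124) on the log2 scale. The first call was lost without any 1 of 4 libraries, Sham replicates 3 and 4 and MSC replicates 1 and 3 (adjusted p up to 0.0975). The week 1 Sham mice had 273 CPM of Ntrk3, and those of week 3 had 228 to 256 CPM. Cntfr, on chromosome 4 (41657498 to 41697089, − strand), encodes the CNTF-binding chain and was 56.5 to 68.9 CPM in Sham and 53.7 to 60.3 CPM after IL-4 MSCs at 1 wpi. It averaged 57.5 CPM in the week 1 Sham mice, 64.5 CPM in those of week 3 and 58.7 CPM in these IL-4 MSC mice. Its differences from Sham, -0.14 ± 0.05 (adjusted p = 0.0135), and from MSC mice, -0.14 ± 0.05 (adjusted p = 0.0456), were -0.07 and -0.12 with scaling by library totals alone (adjusted p = 0.267 and 0.128). The call against Sham was lost without Sham replicate 1, Sham replicate 2 or IL-4 MSC replicate 1 (log2 -0.16 to -0.09, adjusted p up to 0.132). That against MSC mice was lost without any 1 of 9 of the 10 libraries, all but MSC replicate 1 (log2 -0.17 to -0.10, adjusted p up to 0.253). From 1 to 3 wpi in IL-4 MSC mice, where 32.8% of all genes were called, Ntrk2 rose by 0.11 and Cntfr by 0.12 (adjusted p = 0.00913 and 0.0393). With scaling by totals alone these were 0.05 and 0.06 (adjusted p = 0.317 and 0.378). The Ntrk2 call was lost without IL-4 MSC replicate 1, 2 or 5 of 1 wpi or replicate 2 of 3 wpi, and the Cntfr call without any 1 of the 10 libraries (adjusted p up to 0.125 and 0.287).

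Gfra1, on chromosome 19 (58235604 to 58455909, − strand), encodes the GDNF-binding co-receptor. It was 51.0 to 68.4 CPM over all libraries and was called in none of the 15 comparisons, with log2 differences from -0.06 to 0.10 and standard errors of 0.05 to 0.06. The genes nearest to it were Srek1ip1 (0.728), Gm13889 (0.657) and Zfp503 (0.641), by Pearson r.

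Between MSC and PBS mice no member was called at either time, where 0.0992% of all genes were at 1 wpi and 0.0759% at 3 wpi; unadjusted p-values under 0.05 numbered 0 and 1 (Cntfr), and DESeq2 called 0 in both. Between IL-4 MSC mice and the PBS or MSC mice of 3 wpi no member was called either (2.9% and 3.3% of all genes), with 4 and 6 members at an unadjusted p under 0.05, and DESeq2 called 2 (Bdnf and Ntf3) and 1 (Bdnf). From 1 to 3 wpi no member was called in PBS or MSC mice (5.46% and 6.08% of all genes), with 1 and 3 at an unadjusted p under 0.05 and 0 by DESeq2 in both. No member had groups that did not overlap between MSC and PBS mice (0.782% and 1.57% of all genes at 1 and 3 wpi), between IL-4 MSC and PBS or MSC mice at 3 wpi (3.15% and 1.61%), or between the weeks in PBS or MSC mice (7.39% and 5.74%). No member was called in the 3 tests of whether a treatment difference changed between the weeks, where 4.65%, 0% and 7.7% of all genes were, with 1 (Ntrk2), 0 and 0 members at an unadjusted p under 0.05 by edgeR.

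Of 11 other neurotrophins and receptors, 6 were lower than in Sham after IL-4 MSCs at 1 wpi, 2 after PBS and 2 after MSCs, with none higher. The shares of all genes lower in these comparisons were 18.4%, 4.99% and 6.86%. Sort1, the sortilin co-receptor for precursors of neurotrophins, went from 599 ± 34.5 to 521 ± 15.5 CPM after IL-4 MSCs (log2 -0.27, adjusted p = 4.91e-05), and Sorcs3, a neuronal relative of sortilin, fell by 0.38 (adjusted p = 8.04e-06). Ntf5, at 7.58 to 12.7 counts in Sham, differed by 0.06 after IL-4 MSCs at 1 wpi on the log2 scale (adjusted p = 0.915). Of 9 tested genes of precursor cleavage, 2 were higher and 3 lower after IL-4 MSCs at 1 wpi, where 18.4% of all genes were higher and 18.4% lower. Pcsk1, a prohormone convertase of secretory granules, was lower than Sham in all 6 injured groups, from -0.67 after IL-4 MSCs at 1 wpi (adjusted p = 1.23e-10) to -0.33 after MSCs at 3 wpi (adjusted p = 0.00318). Furin, a convertase of the Golgi, rose by 0.38 after IL-4 MSCs at 1 wpi (adjusted p = 7.44e-09).

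Of the GDNF family, 8 of 10 further genes were tested, and 1 was higher and 3 lower after IL-4 MSCs at 1 wpi. In that comparison 36.9% of all genes were called, 18.4% higher and 18.4% lower, which is the background for the 3 lists here. Gfra2, the co-receptor for neurturin, fell by 0.33, 0.22 and 0.29 in the PBS, MSC and IL-4 MSC groups (adjusted p = 0.000509, 0.018 and 0.000592). Ret, the signalling kinase of the family, was 25.9 ± 8.56 CPM in Sham and 19.8 ± 2.39 CPM after IL-4 MSCs at 1 wpi (log2 -0.47, adjusted p = 0.148). Of 12 signalling adaptors 2 were higher and 5 lower in that group. The adaptor Shc1 rose by 0.62 (adjusted p = 2.24e-07) and Kidins220, a scaffold of neurotrophin receptors, fell by 0.18 (adjusted p = 2.42e-06). Of 10 other trophic proteins 3 were higher and 1 lower. The growth factors Fgf2 and Hgf rose by 0.95 and 0.58 (adjusted p = 2.18e-07 and 6.97e-07), and Vgf, a neuropeptide precursor that BDNF induces, fell by 0.45 (adjusted p = 6.89e-05).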

How the data were processed

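Total RNA of 34 libraries was analysed; 1 further labelled sample (PBS at 3 wpi) was left out by the study and has no column here. The authors trimmed reads with cutadapt 2.4, estimated counts per transcript with kallisto 0.46 against protein-coding GENCODE transcripts, and deposited, per gene, estimated counts and TPM for each library. Fold changes, p-values and q-values of the authors' own comparisons are in the same table and were not used.

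The estimated counts were rounded, scaled by TMM and fitted with edgeR 4.0.16 (limma 3.58.1, R 4.3.3; quasi-likelihood, robust, 1 term per group, filterByExpr, 17131 genes), with Benjamini-Hochberg adjustment at 0.05 over all genes in each of 15 comparisons and 3 interactions. CPM is the count over the library's total estimated counts; log2 CPM used a prior count of 2. Deposited TPM values served for levels between genes. The fit was tested on simulated data. Alternatives were other scaling factors, no filter, DESeq2 1.42.0, the replicate block, marker scores as covariates, same-week Sham mice, 2-group fits and leaving out each library. The members, the 7 pathway lists and the 16 marker lists were chosen with earlier results of these data known. Genes named from pathway lists were the up to 4 of each list with the smallest adjusted p, plus Ntf5, Ret, Sort1, Il6st, Lifr and others; some genes this rule names are not reported here. Lists were counted, not tested. Gene positions are from GENCODE M21 and promoters from RefSeq, both on GRCm38. The library type's strand setting is not given in the sources used here, so antisense transcripts annotated across Bdnf, Ntrk2, Ntrk3 and Gfra1 could share reads. The 66 pairs of libraries of one group differed by a chi-square per gene of 3.20 to 50.1, so all were kept as separate samples. Counts of 3 or fewer were taken as the floor of detection, 0.0722 to 0.101 CPM.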

Additional observations from a re-analysis of the deposited data

Results flagged for a closer look

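Of the 63 sets of 1 member in 1 group, 4 had a library standing apart from the others of its group by Dixon's ratio at the 95% level; chance gives about 1 in 20 such sets. Ngfr in IL-4 MSC replicate 2 at 3 wpi was 3.39 CPM, against 8.51 to 9.55 CPM in the other 4 mice. Cntfr in IL-4 MSC replicate 1 at 1 wpi was 53.7 CPM, against 59.1 to 60.3 CPM. Ntf3 in MSC replicate 4 at 1 wpi was 1.64 CPM, against 1.17 to 1.30 CPM. Gfra1 in IL-4 MSC replicate 4 at 3 wpi was 68.4 CPM, against 54.0 to 58.1 CPM. All 4 libraries stayed in the fits.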

How the results depend on the processing

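Of 302 counts of members called under an alternative, 257 stayed within 1.5 times the reported count and 45 did not. Of 2718 member fold changes, 2600 stayed on their side of the threshold, 90 lost the call, 27 gained one and 1 was called in the opposite direction; values that were not called either way were not counted by sign. With the neuronal score as a covariate the number of members called against Sham at 1 wpi was 1 after PBS, 1 after MSCs and 2 after IL-4 MSCs, in place of 2, 3 and 6. Against Sham mice of the same week it was 5 after MSCs. For IL-4 MSCs at 1 wpi against Sham it was 3 with library totals alone and 3 with 2 groups in the fit. At 3 wpi it was 0 with the striatal score, 0 with the hippocampal score and 0 with 2 groups in the fit, in place of 1. Between IL-4 MSC and PBS mice at 1 wpi it was 2 with the striatal score, 2 with the neuronal score, 2 with the cholinergic score and 2 with 2 groups, in place of 1. Between IL-4 MSC and MSC mice at 1 wpi it was 1 with RLE factors, 1 with library totals, 1 with no filter, 1 with the neuronal score and 1 with 2 groups, in place of 2. At 3 wpi DESeq2 called 2 members between IL-4 MSC and PBS mice and 1 between IL-4 MSC and MSC mice, in place of 0. Between the weeks it was 1 in MSC mice with the hippocampal score, in place of 0, and in IL-4 MSC mice 1 with library totals and 0 with the neuronal score, in place of 3. Leaving out each library in turn gave 1 to 2, 2 to 3 and 3 to 5 against Sham at 1 wpi (PBS, MSCs, IL-4 MSCs), 1 to 2 for IL-4 MSCs at 3 wpi, 1 to 2 and 0 to 2 against PBS and MSC mice at 1 wpi, 0 to 4 and 0 to 2 at 3 wpi and 1 to 2 between the weeks in IL-4 MSC mice. The highest counts at 3 wpi came without IL-4 MSC replicate 2, the mouse of its group with the least striatal and most hippocampal marker RNA. Gdnf between the weeks in IL-4 MSC mice reversed from 0.48 (adjusted p = 0.436) to -0.82 (adjusted p = 0.0101) with the striatal score; the cause of these changes was not tested. No member was called under any alternative for PBS or MSCs at 3 wpi against Sham, MSCs against PBS at either week, or PBS between the weeks.

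With the replicate number as a block the IL-4 MSC comparison with Sham at 1 wpi called 6 members, and no count of members changed in any comparison. Over 99 same-numbered pairs the correlation of deviations from the group means ran from -0.462 to 0.400 with a median of 0.0116. The replicate numbers thus showed no pairing common to all groups. Pairs of different numbers were not compared, and pairing between single groups was not tested. Counts limit Gdnf and Ntf3 most, and PBS at 3 wpi has 4 libraries.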
